A study of Homo sapiens with 6 samples.

Results

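The ADAM and ADAMTS metalloproteases, the ADAMTS-like proteins and their inhibitors were followed by RNA-seq in BT549 cells, a breast cancer cell line with mesenchymal features, after knockdown of the zinc finger protein basonuclin-2 (BNC2). Genes were taken by symbol from the table of 23346 genes: 22 ADAM rows, of which ADAM1 and ADAM6 are pseudogenes, 19 ADAMTS rows, 5 ADAMTSL rows, TIMP1 to TIMP4, and RECK, which makes 51 genes. Of these 51 genes, 28 had a CPM (counts scaled by library size) of more than 1 in at least 3 libraries and were tested among 12186 genes in all. The other 23 fell below this filter, 8 of them with 0 counts in every library. The comparison was between 3 libraries from cells given BNC2 siRNA, an equal mix of 3 siRNAs, and 3 libraries from cells given negative control (NC) siRNA. Cells of both groups were transfected at 20 nM with a lipid reagent, which the labels and the methods name differently, and were collected on day 6. Both groups are the same unmodified line, so that each value belongs to 1 line and to transient knockdown. CPM values below also carry edgeR's TMM factors, fold changes are BNC2 siRNA over NC siRNA, and a gene was called at an adjusted p of at most 0.05 (edgeR's quasi-likelihood test with Benjamini-Hochberg adjustment over all 12186 genes).

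ADAMs are mostly membrane proteins in which a metalloprotease domain is joined to a disintegrin domain. Those with an intact active site cut other membrane proteins close to the cell surface, which releases growth factors, cytokines and adhesion molecules. This cleavage is called shedding, and ADAM10 and ADAM17 are its best known enzymes. ADAMTS proteases are secreted, bind the extracellular matrix through thrombospondin repeats, and include enzymes that cut proteoglycans and enzymes that trim procollagen. ADAMTS-like proteins share the repeats but have no protease domain. TIMPs bind metalloproteases and block them, and RECK is a membrane-anchored glycoprotein known as an inhibitor of several metalloproteases, ADAM10 among them. BT549 is a fibroblast-like line in which matrix genes are active.

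Depth was alike in all libraries, with 16093978 to 18246254 counts on genes, so that 3 counts correspond to 0.164 to 0.186 CPM. BNC2 itself had 65.6, 51.5 and 58.6 CPM with NC siRNA against 35.5, 36.6 and 41.6 CPM with BNC2 siRNA. This left 64.6% of its level (adjusted p = 8.2e-06 by edgeR's quasi-likelihood test, log2 fold change -0.63 ± 0.09, standard error), and the groups did not overlap. Of the 5 epithelial markers CDH1, EPCAM, ESRP1, GRHL2 and CLDN7, none passed the filter, and all 5 mesenchymal markers did. VIM, CDH2, ZEB1 and FN1 rose and SPARC fell. In RNA from whole cultures, fewer cells of a kind and less RNA per cell cannot be told apart. Only uniquely mapped reads on the sense strand were counted, and antisense reads came to 0.504% to 1.04% of the reads on the 51 genes.

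The agents that set the groups apart are short duplexes, and their seeds (bases 2 to 8 of the antisense strand, in capitals) are shown because a strand can also pair by its seed with the 3′ UTR of other mRNAs. The antisense strands, 5′ to 3′ with their overhangs, were:
BNC2 siRNA (1): uUUACACUgaucacaagucct
BNC2 siRNA (2): uUGUCAUAgaaugucuucctt
BNC2 siRNA (3): uUUCGGCUucguacagaggtt
NC siRNA: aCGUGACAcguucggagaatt
The sites complementary to the BNC2 siRNA seeds are AGTGTAA for the first, TATGACA for the second and AGCCGAA for the third. At least 1 of them occurred in the annotated 3′ UTR of 22.7% of the 10487 tested genes that have one, and in 7 of 27 tested genes of the protease and inhibitor families (25.9%). Among the family genes called lower, 3 of 11 held a site (27.3%), and among those called higher 3 of 8 (37.5%). RECK, ADAM17, ADAMTS1, ADAMTS10, ADAM11, ADAM32 and TIMP2 held none. Sites of called genes follow as examples, with the complement of the seed in capitals, on GRCh37, the assembly that hg19 corresponds to.
ADAM23, BNC2 siRNA (1), chr2:207484991-207485019, plus strand: tggcaaatgtcAGTGTAActttttgttac
ADAM23, BNC2 siRNA (2), chr2:207482387-207482415, plus strand: tggattctgggTATGACAtactcgcagca
ADAMTS4, BNC2 siRNA (1), chr1:161158879-161158907, minus strand: cagaatctgccAGTGTAAacccagcagaa
ADAMTS12, BNC2 siRNA (2), chr5:33523791-33523819, minus strand: caaaataattgTATGACAtacacggccca
ADAM10, BNC2 siRNA (1), chr15:58883096-58883124, minus strand: tgtttgttctcAGTGTAAaaaaatgagaa
ADAMTS2, BNC2 siRNA (2), chr5:178537997-178538025, minus strand: actccctcctgTATGACAggtagccacta
ADAMTSL1, BNC2 siRNA (1), chr9:18910244-18910272, plus strand: actaaaaaatcAGTGTAAagtctgtttaa
ADAM23, ADAMTS4 and ADAMTS12 were lower with BNC2 siRNA, and ADAM10, ADAMTS2 and ADAMTSL1 were higher. Over all tested genes with a 3′ UTR, 32.0% of those with a site for BNC2 siRNA (1) were called lower against 36.6% of those without. The shares were 34.96% against 36.05% for BNC2 siRNA (2), and 47.0% against 35.7% for BNC2 siRNA (3), whose site was in 2.19% of the genes. For the seed of the NC siRNA they were 31.0% against 36.1%, with a site in 3.17% of the genes. These shares are descriptions, and an effect of the seeds on the genes shown was not tested.

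The members of the families moved in both directions. Of the 28 genes tested, 8 rose and 11 fell with BNC2 siRNA and 9 were not called. The share called (67.9%) lay near that of all genes tested (72.9%), of which 36.6% were called higher and 36.2% lower. Their median log2 fold change was 0.08, against 0.00 for all genes tested. Changes of at least 2-fold were called for 2 genes that rose and 7 that fell. Of all 12186 genes tested, 983 rose and 1227 fell by as much, 18.1% in either direction. In 20 of the 28 genes the libraries of the groups did not overlap, against 74.9% of all genes. ADAM32 was the 1 gene that passed the filter through the NC siRNA libraries only, and so had to be lower with BNC2 siRNA. In sum, the 51 genes held 2310 to 2340 CPM in the NC siRNA libraries and 2576 to 2590 CPM in the BNC2 siRNA libraries.

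**Figure D1:**
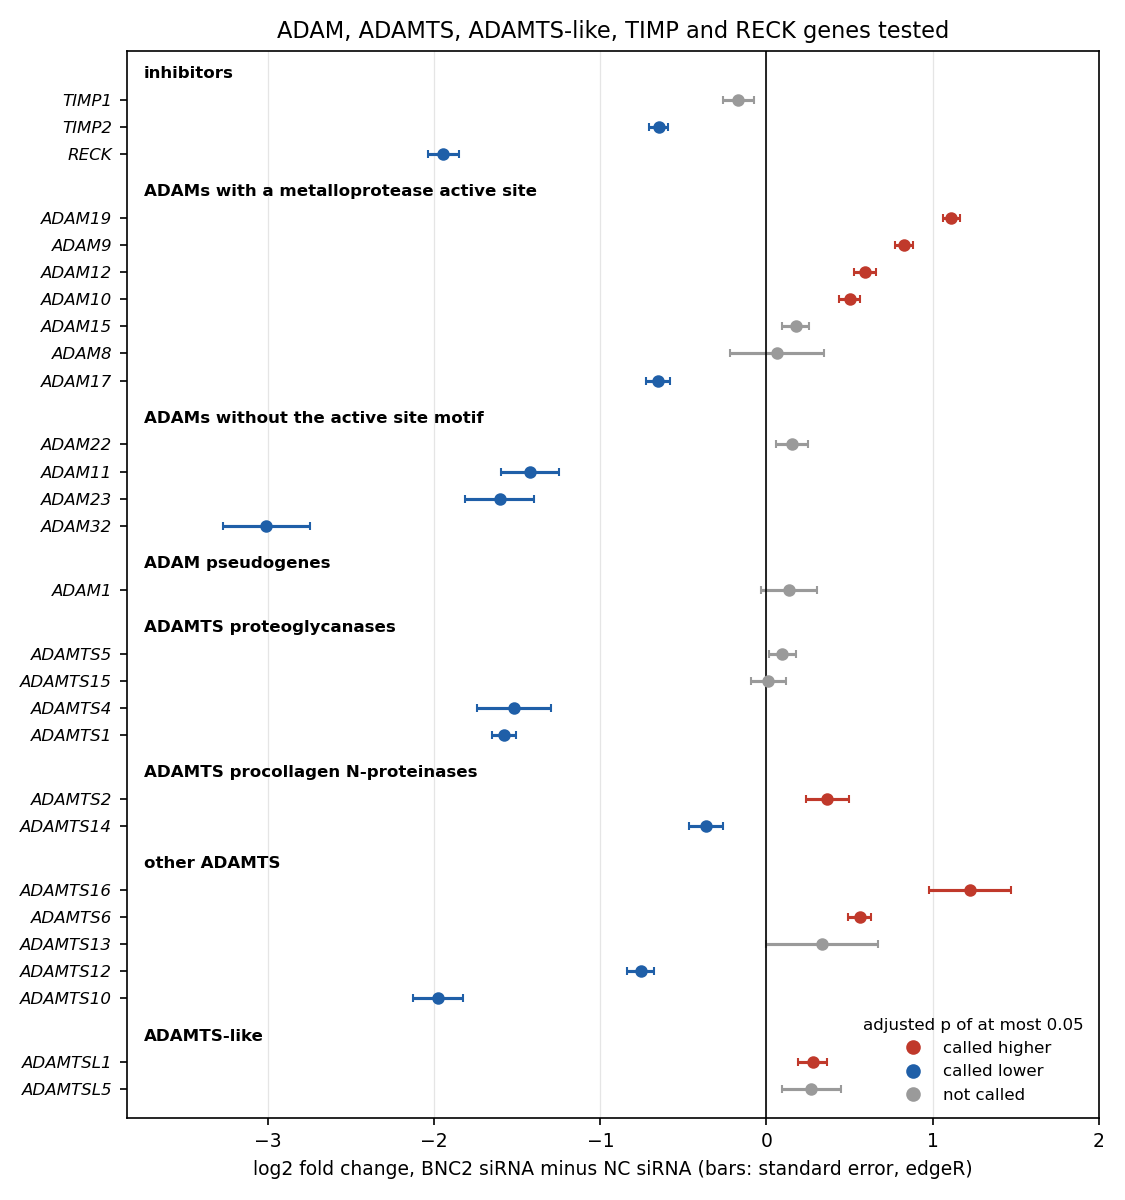
Log2 fold change (x axis, BNC2 siRNA minus NC siRNA) of the 28 genes tested, grouped by role, with bars for the standard error from edgeR and colour for the call. Genes lie on both sides of 0, from -3.01 for ADAM32 to 1.23 for ADAMTS16, and RECK and TIMP2 lie on the low side.

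Per kilobase of transcript, which allows levels to be compared between genes, TIMP1 was the most abundant member in both groups, with 629 ± 94.1 CPM per kb (SD, n = 3) with NC siRNA and 559 ± 60.9 CPM per kb (SD, n = 3) with BNC2 siRNA. TIMP1 alone made up 63.2% of the summed level per kb of the tested genes with NC siRNA and 58.4% with BNC2 siRNA. TIMP2 was next with NC siRNA, at 127 ± 2.80 CPM per kb, followed by ADAM9 at 72.6 ± 1.38 CPM per kb. With BNC2 siRNA this order was turned, with ADAM9 at 129 ± 4.97 CPM per kb and TIMP2 at 80.7 ± 3.77 CPM per kb. ADAM12 (31.0 ± 2.37 CPM per kb) and ADAM19 (26.6 ± 0.897 CPM per kb) followed with NC siRNA. They also changed places, to 46.7 ± 2.68 and 57.6 ± 0.585 CPM per kb with BNC2 siRNA. ADAM17 was above ADAM10 per kb with NC siRNA, at 22.2 ± 1.87 against 12.4 ± 0.566 CPM per kb. With BNC2 siRNA it was below, at 14.1 ± 0.717 against 17.6 ± 1.08 CPM per kb. The order with NC siRNA rests on the annotated length of ADAM10, 11158 bases against 4391 for ADAM17, and could turn with a shorter transcript, as ADAM10 had more counts than ADAM17 in every library of both groups. RECK moved from rank 10 to rank 15 and ADAMTS10 from rank 14 to rank 20. At the low end with NC siRNA, ADAMTS13 (0.268 ± 0.123) and ADAMTS16 (0.208 ± 0.00649 CPM per kb) did not differ beyond their spread. Lengths are those of 1 annotated transcript per gene, and the transcripts that BT549 cells use may be shorter.

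**Figure D2:**
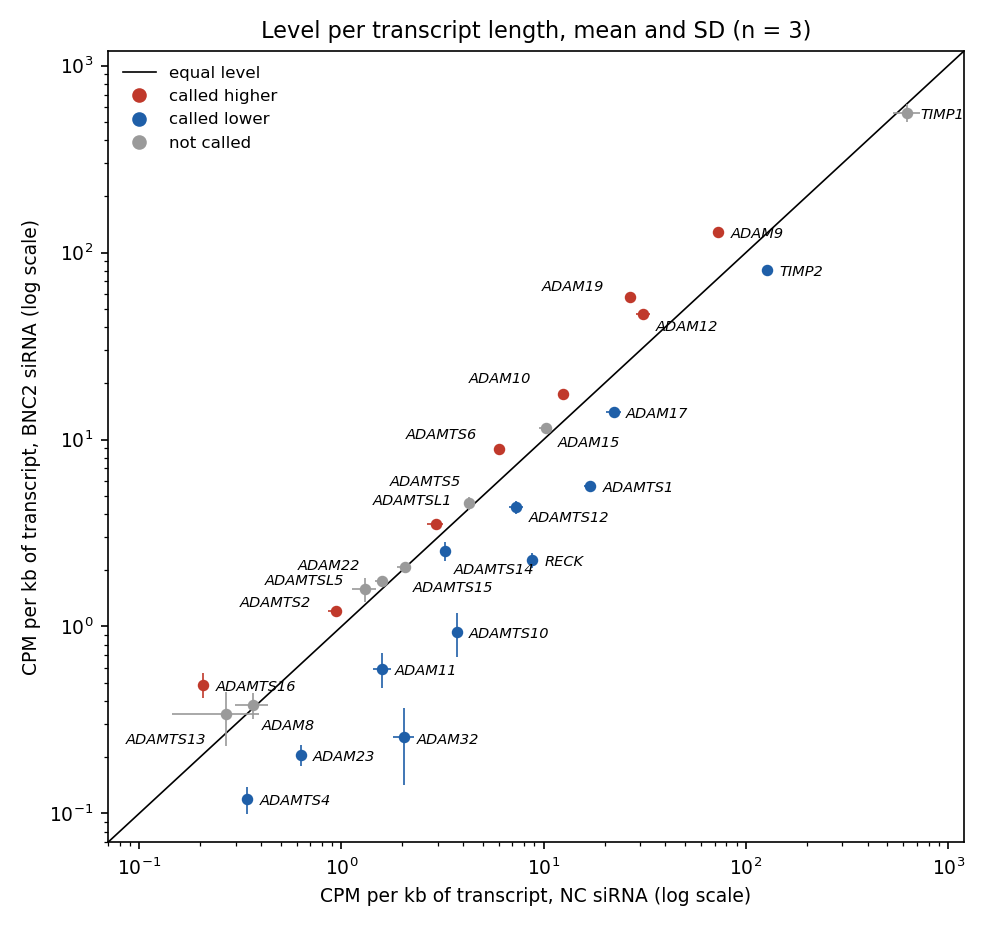
Mean CPM per kb of transcript with NC siRNA (x axis, log scale) and BNC2 siRNA (y axis, log scale) for the tested genes with a transcript length, with bars for the SD (n = 3) and a line of equal level. TIMP1 lies far above the other genes in both groups, ADAM9 has passed TIMP2, and RECK, ADAMTS10 and ADAM32 lie well under the line.

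Among the inhibitors, RECK and TIMP2 fell, TIMP1 was not called, and TIMP3 and TIMP4 were hardly detected. RECK (chr9:36036910-36124452, plus strand, GRCh37) had 39.0, 36.6 and 40.0 CPM with NC siRNA and 9.89, 10.9 and 9.17 CPM with BNC2 siRNA. Every BNC2 siRNA library was thus far below every NC siRNA library. The fold change was 3.85 downward (log2 fold change -1.94, standard error 0.09, adjusted p = 1.4e-11). TIMP2 (chr17:76849059-76921469, minus strand), which besides blocking metalloproteases takes part in the activation of pro-MMP2, had 469, 450 and 467 CPM with NC siRNA and 289, 310 and 284 CPM with BNC2 siRNA. These groups did not overlap either, and 63.8% of the level was left (log2 fold change -0.65, standard error 0.06, adjusted p = 1.8e-08).

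TIMP1 (chrX:47441807-47446188, plus strand), a broad inhibitor of secreted metalloproteases and of ADAM10, had 400, 529 and 521 CPM with NC siRNA and 479, 425 and 386 CPM with BNC2 siRNA. Its groups overlapped, as the first NC siRNA library lay within the range of the BNC2 siRNA libraries. On the log2 scale TIMP1 changed by -0.17 with a 95% interval of -0.35 to 0.01 and was not called (adjusted p = 0.113 by edgeR's quasi-likelihood test), but without the first NC siRNA library the value was -0.31 and TIMP1 was called lower. TIMP1 was also called lower with total counts as the only scaling (-0.24), without the filter on low counts (-0.14) and without the first BNC2 siRNA library (-0.25). TIMP3, the inhibitor best known for binding ADAM17 and the aggrecanases, had 3, 1 and 1 counts with NC siRNA and 0 in each BNC2 siRNA library. It lay at or under 3 counts everywhere, so that no fold is given. TIMP4 had 6, 1 and 2 counts with NC siRNA and 1, 0 and 2 with BNC2 siRNA. Together, TIMP1 and TIMP2 held 869 to 989 CPM with NC siRNA and 670 to 768 CPM with BNC2 siRNA, and these sums did not overlap. The ratio of TIMP1 to TIMP2 counts within a library rose from 1.05 ± 0.171 (SD, n = 3) to 1.46 ± 0.168 (SD, n = 3), which restates the fall of TIMP2 beside TIMP1 and was chosen with their values known, so no p is given.

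**Figure D3:**
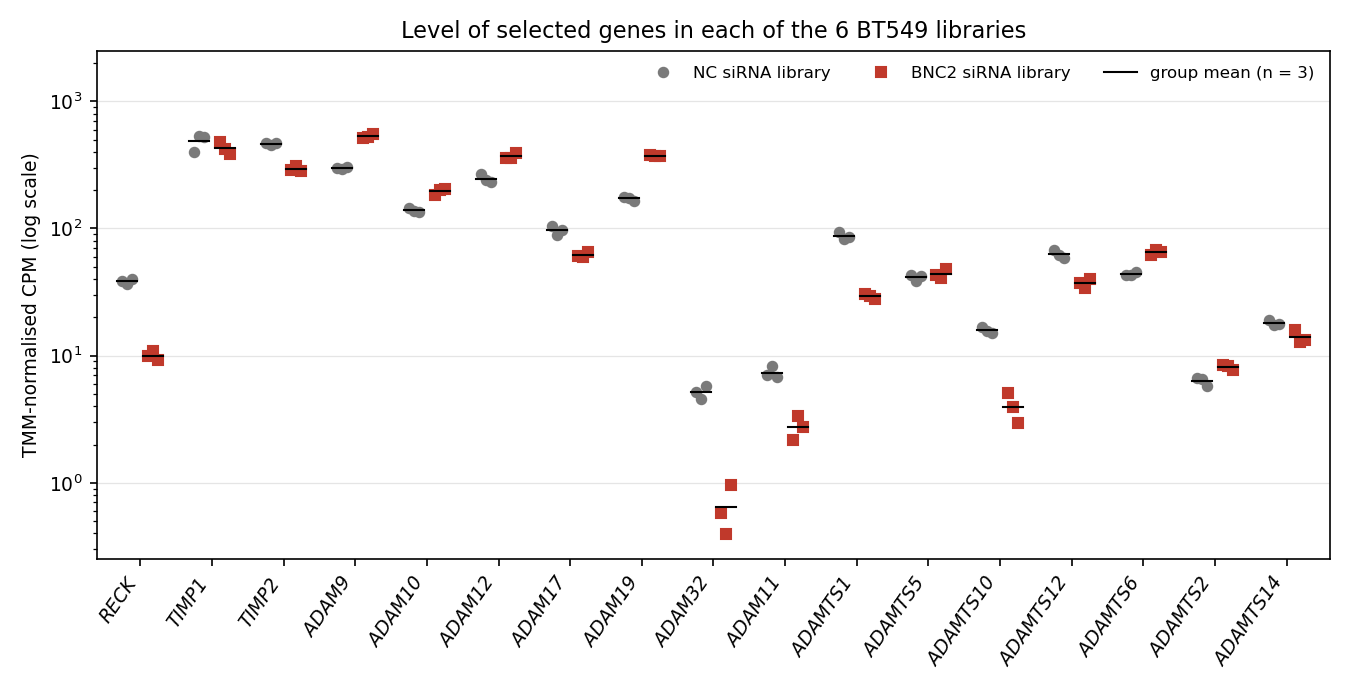
CPM (y axis, log scale) of 17 genes in each library, with circles for NC siRNA, squares for BNC2 siRNA and lines for group means (n = 3). The squares of RECK lie at 9.17 to 10.9 CPM under circles at 36.6 to 40.0 CPM, those of ADAM19 lie above the circles, and those of TIMP1 and ADAMTS5 overlap with them.

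ADAMs were divided by whether they have a metalloprotease active site from general knowledge of the family, not by a search of their sequences. Of the 12 with the site, 7 were tested, of which 4 rose (ADAM9, ADAM10, ADAM12 and ADAM19), ADAM17 fell, and ADAM8 and ADAM15 were not called. For comparison, 36.6% of all genes tested were called higher and 36.2% lower. ADAM19 (meltrin beta), which takes part in neuregulin processing and heart development, had 177, 175 and 166 CPM with NC siRNA and 377, 369 and 373 CPM with BNC2 siRNA. All BNC2 siRNA libraries lay about alike and above the NC siRNA libraries, with a fold change of 2.16 (log2 fold change 1.11, standard error 0.05, adjusted p = 1.7e-11). ADAM9, a sheddase and a binding partner of integrins, rose from 299 ± 5.67 CPM to 530 ± 20.4 CPM (SD, n = 3; log2 fold change 0.83). ADAM12 (meltrin alpha), a sheddase that also binds syndecans, rose from 246 ± 18.8 CPM to 371 ± 21.3 CPM (SD, n = 3; log2 fold change 0.59). These were the largest rises among the members above 100 CPM.

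The main sheddases moved in opposite directions. ADAM10 (chr15:58881008-59041990, minus strand), which cuts Notch receptors, N-cadherin and CD44, had 146, 136 and 134 CPM with NC siRNA and 183, 201 and 205 CPM with BNC2 siRNA. It was higher in each BNC2 siRNA library than in any NC siRNA library (log2 fold change 0.50, standard error 0.06, adjusted p = 1.6e-06). ADAM17 (chr2:9628615-9696861, minus strand), the tumour necrosis factor converting enzyme, had 106, 89.2 and 97.2 CPM with NC siRNA and 60.4, 59.9 and 65.6 CPM with BNC2 siRNA. It was lower in each BNC2 siRNA library, with 63.6% of its level left (log2 fold change -0.65, standard error 0.07, adjusted p = 3.8e-07). Within a library, which needs no scaling between libraries, ADAM10 had 1.38, 1.53 and 1.38 counts per count of ADAM17 with NC siRNA and 3.02, 3.35 and 3.13 with BNC2 siRNA. The mean ratio went from 1.43 ± 0.0834 to 3.17 ± 0.167 (SD, n = 3), 2.22-fold higher (exact permutation test, two-sided, p = 0.1, the smallest possible). The ratio of ADAM9 to ADAM17 went from 3.08 ± 0.209 to 8.56 ± 0.222 (SD, n = 3), with the same p. Both ratios were chosen with the values of these genes known, so that their p-values add nothing to the tests of the single genes.

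**Figure D4:**
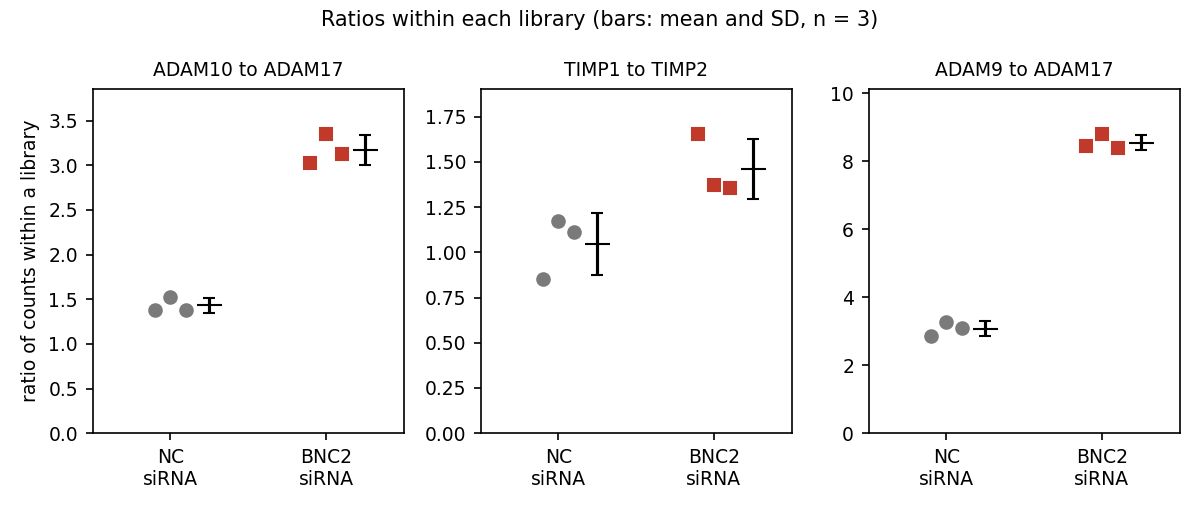
Ratios of counts within each library (y axes, linear from 0) for ADAM10 to ADAM17, TIMP1 to TIMP2 and ADAM9 to ADAM17, with points for libraries and bars for mean and SD (n = 3). In each panel the BNC2 siRNA libraries lie above the NC siRNA libraries, by 2.22-fold, 1.40-fold and 2.78-fold in the means.

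ADAM15, an ADAM with an RGD sequence for integrins, had 30.0 ± 2.25 CPM with NC siRNA and 33.9 ± 0.534 CPM with BNC2 siRNA (SD, n = 3; log2 fold change 0.17, adjusted p = 0.0563 by edgeR's quasi-likelihood test). It was not called although its groups did not overlap, and it was called higher without the filter on low counts (0.20), with edgeR's filterByExpr (0.18) and without the second NC siRNA library (0.22). ADAM8, an ADAM best known from leukocytes, was near the filter at 1.19 ± 0.226 and 1.24 ± 0.196 CPM (SD, n = 3; 95% interval of the log2 fold change -0.49 to 0.62). ADAM20, ADAM21, ADAM28, ADAM30 and ADAM33 fell below the filter. Of these, ADAM28 had 2 counts in each NC siRNA library and 8, 8 and 14 in the BNC2 siRNA libraries, a ratio of summed counts of 4.89 with a 95% counting interval (exact binomial) of 2.00 to 14.4.

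ADAMs without the active site motif cannot cleave and act as adhesion or receptor proteins. Of 8 such genes, 4 were tested, of which 3 fell, ADAM32 among them by way of the filter, and ADAM22 was not called. The share called (75%) lay near that of all genes tested (72.9%), of which 36.2% were called lower. ADAM11, a receptor-like ADAM best known from neurons, had 7.10, 8.23 and 6.74 CPM with NC siRNA and 2.15, 3.33 and 2.74 CPM with BNC2 siRNA. The groups lay well apart (log2 fold change -1.42, standard error 0.18, adjusted p = 1.6e-06). ADAM32, best known from testis, had 5.18, 4.54 and 5.78 CPM with NC siRNA and 0.582, 0.395 and 0.955 CPM with BNC2 siRNA. It was 8.07-fold lower in the fit (log2 fold change -3.01, standard error 0.26), but as it passed the filter through the NC siRNA libraries only, its direction was fixed and no p is given. Its neighbour ADAM9, which ends 1544 bases before ADAM32 on the same strand, rose in the same libraries. ADAM23, a partner of the secreted protein LGI1 in neurons, fell from 3.99 ± 0.0941 to 1.31 ± 0.174 CPM (SD, n = 3; log2 fold change -1.61). ADAM22, another LGI1 receptor, had 15.0 ± 1.09 and 16.7 ± 0.712 CPM (SD, n = 3; log2 fold change 0.16, 95% interval -0.03 to 0.35). ADAM2, ADAM7, ADAM18 and ADAM29 had 0 counts in every library, which allows up to 3 counts in each. The pseudogene ADAM1 was not called (3.78 ± 0.516 and 4.15 ± 0.0691 CPM, SD, n = 3), and ADAM6 had 0 counts.

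Of the 7 ADAMTS proteoglycanases, which cut aggrecan, versican and related proteoglycans, 4 were tested. ADAMTS1 and ADAMTS4 fell, and ADAMTS5 and ADAMTS15 were not called, where 36.2% of all genes tested were called lower. ADAMTS1 (chr21:28208074-28217728, minus strand), a protease that cuts versican, had 94.0, 83.1 and 86.3 CPM with NC siRNA and 30.7, 29.6 and 28.0 CPM with BNC2 siRNA. Each BNC2 siRNA library was at about 30 CPM, 2.98-fold lower in the fit (log2 fold change -1.58, standard error 0.07, adjusted p = 8.9e-12). ADAMTS4 (aggrecanase-1), at 0.343 ± 0.0142 CPM per kb with NC siRNA far less abundant, had 3.44, 3.19 and 3.43 CPM with NC siRNA and 1.34, 0.959 and 1.21 CPM with BNC2 siRNA. It fell by a like amount (log2 fold change -1.52, standard error 0.22, adjusted p = 1.1e-05). ADAMTS5 (aggrecanase-2) had 43.3, 38.4 and 42.0 CPM with NC siRNA and 43.4, 41.0 and 47.9 CPM with BNC2 siRNA. Its groups overlapped (log2 fold change 0.10, 95% interval -0.06 to 0.25, adjusted p = 0.278).

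ADAMTS1 and ADAMTS5 are neighbours on chromosome 21, on the same strand and 72512 bases apart. Within a library the ratio of ADAMTS1 to ADAMTS5 counts was 2.17, 2.17 and 2.05 with NC siRNA and 0.705, 0.722 and 0.584 with BNC2 siRNA. The ratio was thus lower in each BNC2 siRNA library, and per kb ADAMTS1 went from 16.9 ± 1.08 CPM per kb toward the level of ADAMTS5, at 5.67 ± 0.262 against 4.58 ± 0.364 CPM per kb with BNC2 siRNA (SD, n = 3). ADAMTS15, another versican-cutting protease, had 12.4 ± 0.986 and 12.5 ± 0.566 CPM (SD, n = 3; log2 fold change 0.01, 95% interval -0.20 to 0.22). Below the filter, ADAMTS8 had 2, 2 and 0 counts with NC siRNA and 8, 5 and 7 with BNC2 siRNA (ratio of summed counts 4.89, 95% counting interval 1.64 to 19.7). ADAMTS9 had at most 1 count and ADAMTS20 had 0 counts in every library.

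The procollagen N-proteinases remove the amino-terminal propeptide of fibrillar procollagens. ADAMTS2 rose and ADAMTS14 fell, both by little, and ADAMTS3 lay below the filter. ADAMTS2 had 6.70, 6.55 and 5.78 CPM with NC siRNA and 8.49, 8.29 and 7.77 CPM with BNC2 siRNA. Its groups did not overlap (log2 fold change 0.37, standard error 0.13, adjusted p = 0.0169), but it was not called without the third NC siRNA library (0.29) or with total counts as the only scaling (0.29). ADAMTS14 had 19.0, 17.5 and 17.8 CPM with NC siRNA and 16.1, 12.9 and 13.3 CPM with BNC2 siRNA. It was lower in each BNC2 siRNA library (log2 fold change -0.36, standard error 0.10, adjusted p = 0.0048). ADAMTS3 had 9, 4 and 5 counts with NC siRNA and 25, 11 and 22 counts with BNC2 siRNA, a ratio of summed counts of 3.15 with a 95% counting interval of 1.83 to 5.69.

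Of the other ADAMTS genes, 5 of 9 were tested, of which 2 rose and 2 fell, against 36.6% and 36.2% of all genes tested. ADAMTS10, which binds fibrillin microfibrils, had 16.7, 15.5 and 15.1 CPM with NC siRNA and 5.06, 3.95 and 2.93 CPM with BNC2 siRNA. The highest BNC2 siRNA library lay far below the lowest NC siRNA library (log2 fold change -1.98, standard error 0.15, adjusted p = 5.1e-09). ADAMTS6, its closest relative, went the other way, from 44.0 ± 1.32 to 64.8 ± 3.30 CPM (SD, n = 3; log2 fold change 0.56). ADAMTS12, which cuts cartilage oligomeric matrix protein, fell from 62.8 ± 4.82 to 37.1 ± 2.85 CPM (SD, n = 3; log2 fold change -0.76). ADAMTS16 rose from 1.03 ± 0.0323 to 2.43 ± 0.372 CPM (SD, n = 3; log2 fold change 1.23). ADAMTS13, the protease of von Willebrand factor, was not called (log2 fold change 0.34, 95% interval -0.32 to 1.00). Its value ranged from 0.044 to 0.76 when a library was left out, also without a call. Below the filter, ADAMTS17 had 7, 9 and 13 counts with NC siRNA and 3 in each BNC2 siRNA library, 3.29-fold fewer in sum with a 95% counting interval of 1.52 to 7.91. ADAMTS7 had 12 to 16 counts in every library, and ADAMTS18 and ADAMTS19 had at most 1.

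Of the 5 ADAMTS-like genes, ADAMTSL1 (punctin-1) rose from 22.7 ± 2.09 to 27.5 ± 0.942 CPM (SD, n = 3; log2 fold change 0.28, adjusted p = 0.0092 by edgeR's quasi-likelihood test). It was not called without the third NC siRNA library (0.19) or with total counts as the only scaling (0.20). ADAMTSL5 was not called (log2 fold change 0.27, 95% interval -0.08 to 0.62). ADAMTSL2, ADAMTSL3 and ADAMTSL4, all below the filter, had at most 1, 1 and 19 counts. ADAMTSL4 was the 1 member with more antisense than sense reads, 29 to 51 in a library, so its few sense reads are uncertain. When genes below the filter were fitted too, 43 of the 51 were tested, and ADAM15, ADAM28, ADAMTS8 and ADAMTS3 were also called higher and ADAMTS17 and TIMP1 lower.

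Promoters were compared by the letters of the RefSeq windows from 250 bases before to 50 bases after each start (GRCh38.p14), which held 34 entries for 33 of the 51 genes. The Sp1 box GGGCGG, searched on both strands, was in 6 of 6 genes called lower that have an entry (RECK, ADAM17, ADAM23, ADAMTS10, ADAMTS12 and ADAMTS14) and in 3 of 6 called higher (ADAM10, ADAM12 and ADAMTS2). It was also in 6 of 6 not called, in 11 of 15 not tested, and in 45.0% of all 35116 windows. ADAMTS10 has a pair of windows, of which 1 holds the box. The pattern TGANTCA, searched the same way, takes any middle base and is thus looser than the AP-1 element, whose middle base is C or G. Of the genes called it was in ADAMTS12 alone, with A as the middle base, against 7.71% of all windows. No called gene with an entry thus held the stricter element. The letters TATAAA of the TATA box were also searched on both strands and at any position of the window. They were in 1 gene called lower, ADAMTS10, on the strand opposite to the gene, and in no gene called higher, against 11.5%. The median number of CpG dinucleotides was 36 in the windows of genes called lower, 28 in those called higher, 30.5 in those not called, 27 in those not tested and 14 in all windows. All windows were not limited to the genes tested here, so the shares and the median over them are no background for tested genes alone. Shown are the 250 bases before the start of RECK and ADAM17, which fell, and of ADAM10 and ADAM19, which rose, with Sp1 boxes in capitals.
RECK, chr9:36036663-36036912, plus strand: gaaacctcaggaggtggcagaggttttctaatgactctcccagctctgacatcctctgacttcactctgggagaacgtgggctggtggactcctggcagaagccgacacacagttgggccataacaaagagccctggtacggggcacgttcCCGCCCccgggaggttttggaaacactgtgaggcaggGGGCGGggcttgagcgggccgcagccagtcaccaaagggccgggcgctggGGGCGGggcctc
ADAM17, chr2:9555831-9556080, minus strand: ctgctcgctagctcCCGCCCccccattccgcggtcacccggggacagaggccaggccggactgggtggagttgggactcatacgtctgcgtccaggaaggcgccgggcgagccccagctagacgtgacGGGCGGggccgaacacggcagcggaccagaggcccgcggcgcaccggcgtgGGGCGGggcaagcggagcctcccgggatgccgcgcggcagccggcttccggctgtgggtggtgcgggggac
ADAM10, chr15:58749708-58749957, minus strand: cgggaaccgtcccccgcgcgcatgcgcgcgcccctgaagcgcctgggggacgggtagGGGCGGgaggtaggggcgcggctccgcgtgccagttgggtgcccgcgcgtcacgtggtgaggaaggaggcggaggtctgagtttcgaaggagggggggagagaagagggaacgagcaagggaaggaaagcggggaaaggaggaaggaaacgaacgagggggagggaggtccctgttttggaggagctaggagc
ADAM19, chr5:157575776-157576025, minus strand: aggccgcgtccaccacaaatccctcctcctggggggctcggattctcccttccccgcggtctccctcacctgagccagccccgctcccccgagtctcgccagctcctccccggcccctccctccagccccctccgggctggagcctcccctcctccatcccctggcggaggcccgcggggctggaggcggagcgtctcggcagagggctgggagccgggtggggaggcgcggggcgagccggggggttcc
RECK and ADAM17 each hold 3 boxes in these bases, ADAM10 holds 1 and ADAM19 none. Among the other genes that fell, ADAM23 holds 2, ADAMTS12 holds 1, ADAMTS14 holds 4, and the windows of ADAMTS10 hold 5 and 0. Among the others that rose, ADAM12 holds 3, ADAMTS2 holds 4, and ADAMTS6 and ADAMTSL1 hold 0, so the numbers of boxes in genes that fell and genes that rose overlap. A match describes the letters and is not evidence of binding.

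Sheddases need partners, and the genes of these partners were read in the same libraries from a list made with earlier results of these data known. Of 13 partners, 10 were tested, 1 rose, 6 fell and 3 were not called. The share called (70.0%) lay near that of all genes tested (72.9%), of which 36.6% were called higher and 36.2% lower. For ADAM17, the iRhoms RHBDF1 and RHBDF2, which carry it to the surface, were not called (log2 fold changes 0.07 and -0.16). FRMD8, which stabilises the complex of iRhom and ADAM17, fell from 71.2 ± 3.25 to 23.1 ± 1.73 CPM (SD, n = 3; log2 fold change -1.62, adjusted p = 1.2e-11 by edgeR's quasi-likelihood test). For ADAM10, which rose, the tetraspanins of the TspanC8 group direct its transport and substrate choice. Among these, 4 of the 5 tested fell, against 36.2% of all genes tested. TSPAN5 had 46.9, 45.8 and 49.4 CPM with NC siRNA and 16.2, 17.4 and 17.6 CPM with BNC2 siRNA (log2 fold change -1.47). TSPAN33 fell from 6.96 ± 1.60 to 0.893 ± 0.193 CPM (SD, n = 3; log2 fold change -2.96), and TSPAN14 (-0.42) and TSPAN17 (-0.52) fell by less. TSPAN15, at 1.51 ± 0.0662 and 1.07 ± 0.457 CPM (SD, n = 3; log2 fold change -0.50), was not called. Without the first BNC2 siRNA library it was called lower (-0.89). Of the convertases that remove the prodomain of ADAMs, FURIN fell (-0.41) and PCSK7 rose (0.34).

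Of 22 genes for proteins that ADAMs shed, 15 were tested, of which 7 rose and 8 fell, against 72.9% of all genes tested that were called. IL6R, the interleukin-6 receptor shed by ADAM10 and ADAM17, rose the most, from 7.36 ± 1.20 to 42.9 ± 2.21 CPM (SD, n = 3; log2 fold change 2.55). NRG1 (neuregulin 1), a growth factor processed by ADAM17 and ADAM19, rose from 148 ± 14.2 to 371 ± 16.5 CPM (SD, n = 3; log2 fold change 1.32). CDH2 (1.36), SDC1 (0.98), NOTCH2 (0.42), CD44 (0.33) and ALCAM (0.27) also rose. HBEGF, a ligand of the EGF receptor released by ADAM17, fell from 65.8 ± 2.96 to 26.9 ± 0.840 CPM (SD, n = 3; log2 fold change -1.29). CXCL16 (-1.90) and SDC4 (-1.43) fell by more, and NOTCH1 (-0.41), TNFRSF1A (-0.21), APP (-0.18) and NOTCH3 (-0.17) by less. L1CAM, with 67, 104 and 56 counts with NC siRNA and 9, 6 and 7 with BNC2 siRNA (-3.30), passed the filter through the NC siRNA libraries only and so had to be lower. The call of NOTCH3 was lost under 5 of the 14 alternatives and that of APP under 1. Below the filter, TNFRSF1B had 31, 29 and 16 counts with NC siRNA and 1, 0 and 0 with BNC2 siRNA, and was called lower when genes below the filter were fitted too. CX3CL1 had 2, 10 and 3 counts against 2, 1 and 0 and was not called in that fit. TNF and the EGF receptor ligands AREG, EREG, TGFA and BTC had at most 2 counts in a library.

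Of 20 genes for ADAMTS substrates, for enzymes that modify ADAMTS proteins and for clearance, 12 were tested, of which 8 rose and 3 fell, against 36.6% and 36.2% of all genes tested. When genes below the filter were fitted too, 5 fell, with COMP (10, 12 and 9 counts against 0, 1 and 0) and VWF (3, 6 and 4 counts against 0 in each library) in addition. VCAN (versican), a substrate of ADAMTS1, ADAMTS4, ADAMTS5 and ADAMTS15, rose from 2.23 ± 0.537 to 10.3 ± 0.726 CPM (SD, n = 3; log2 fold change 2.20). The fibrillar procollagens processed by ADAMTS2 and ADAMTS14 moved in both directions, with COL5A1 (3.68), COL1A2 (1.97) and COL3A1 (1.91) higher and COL1A1 (-0.78) lower. FBN2 (1.29) and LTBP1 (1.79), microfibril proteins, rose, and FBN1 (-0.25) fell. LRP1, the receptor that clears ADAMTS5 and TIMP3 from the cell surface, rose from 39.0 ± 4.75 to 92.8 ± 2.49 CPM (SD, n = 3; log2 fold change 1.25). POFUT2, which puts fucose on thrombospondin repeats and so aids ADAMTS secretion, rose (0.43). B3GALTL, which extends this sugar, was not called (-0.14), but was called lower with total counts as the only scaling (-0.21). THBS1 (thrombospondin 1), a matrix protein with such repeats, fell (-0.90).

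**Figure D5:**
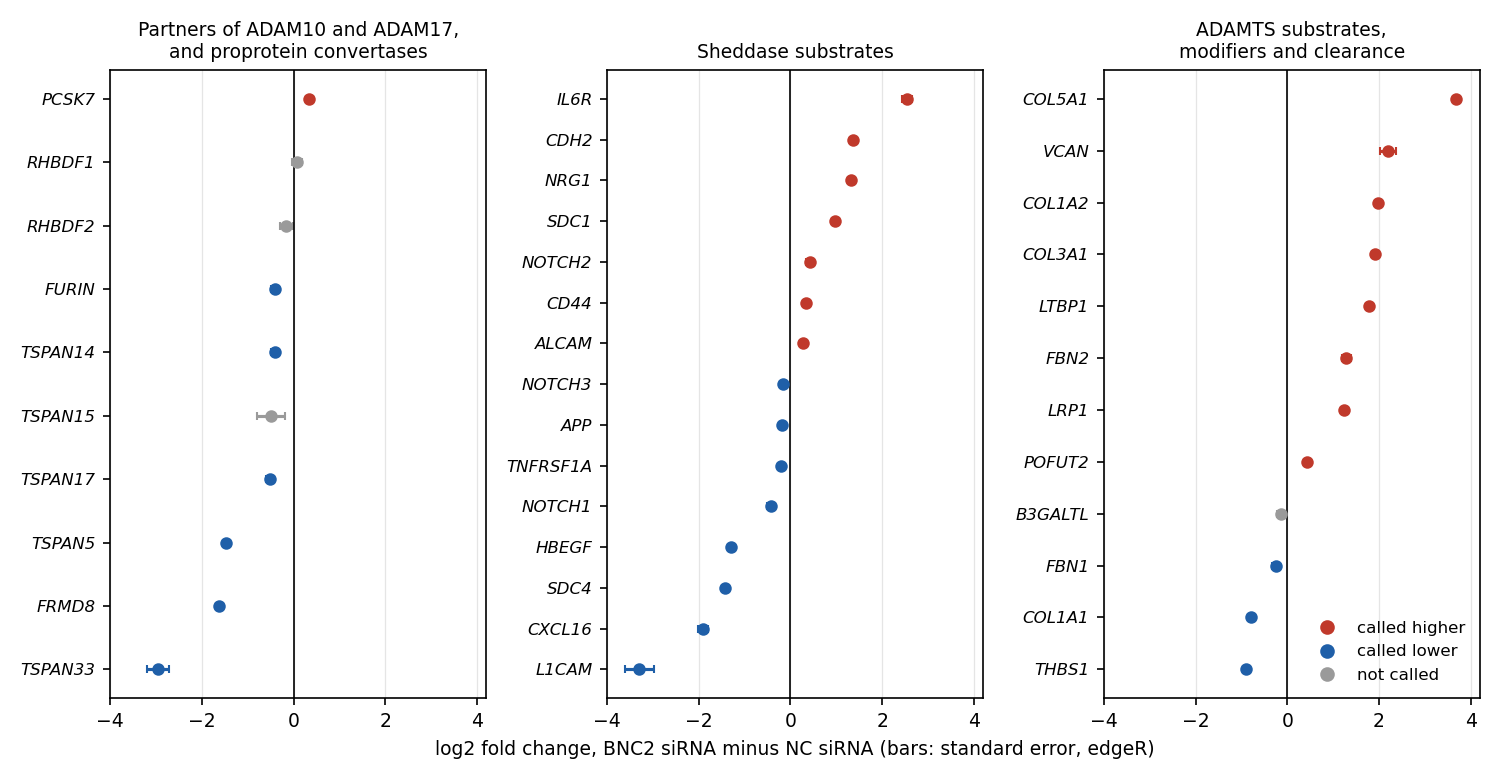
Log2 fold change (x axes, BNC2 siRNA minus NC siRNA) of tested partner genes (left), sheddase substrates (middle) and ADAMTS substrates, modifiers and clearance genes (right), with bars for the standard error from edgeR and colour for the call. FRMD8, TSPAN5 and TSPAN33 lie below -1, substrates of sheddases lie on both sides, and most ADAMTS substrates lie above 0.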

How the data were processed

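RNA was measured in 3 BNC2 siRNA and 3 NC siRNA libraries of BT549 cells. The authors prepared poly(A) libraries, sequenced single-end reads, aligned them with STAR 2.6.1d to hg19 and deposited counts of uniquely mapped reads per gene, not normalised. The table of the series equals the counts of the reverse strand in the library tables for all 23346 genes. Reads not assigned to a gene (37.7% to 41.1% of a library) were left out. This share takes in unmapped reads, reads on no gene, reads ambiguous between genes and multimapping reads (8.68% to 9.71%). Such counts miss reads shared by near-identical genes.

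From these counts, genes above 1 CPM in at least 3 libraries were kept (12186), scaled by TMM (factors 0.972 to 1.04) and compared in edgeR 4.0.16 (R 4.3.3) with the quasi-likelihood test, no block, and Benjamini-Hochberg adjustment at 0.05. A standard error is the log2 fold change divided by the square root of F, and 95% intervals are approximate. The methods call the libraries biological replicates, and 3 against 3 cannot go below p = 0.1 in an exact test. Intervals of ratios of counts cover counting error only. Simulated counts from these libraries with 2-fold changes in 197 tested genes gave 191 recovered (97.0%) and 7 false calls.

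Full values were given for called members of at least 2-fold and 5 CPM, the TIMPs, RECK, ADAM10, ADAM17, the aggrecanases and the procollagen N-proteinases, the others in groups. The members, lists and this rule were chosen with earlier results of these data known. Tried in place of these choices were DESeq2 1.42.0, the likelihood ratio test that the methods name, DESeq2 size factors, total counts only, filterByExpr, no filter, both strands counted, each library left out, and a replicate block. Positions, lengths and 3′ UTRs came from GENCODE mapped to GRCh37, and promoters from RefSeq (GRCh38.p14). Motifs were searched with Python 3.11.15. Some seed sites are not reported here.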

Additional observations from a re-analysis of the deposited data

How the results depend on the processing

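The counts of members that rose and fell (8 and 11) stayed within 1.5 times under all 14 alternatives, from 6 to 12 that rose and 10 to 13 that fell. Without the filter on low counts 12 rose and 13 fell. Of the 28 genes tested, 22 had the same direction and call under every alternative that tested them. Among these, ADAM32 fell below the filter and was not tested when any 1 of the NC siRNA libraries was left out. The exceptions were ADAMTS2, ADAMTSL1, TIMP1 and ADAM15, given with their values above, and ADAM8 and ADAMTS15, whose sign turned without either being called. With total counts only, ADAM8 was at -0.011 and ADAMTS15 at -0.065, and without a library they ranged from -0.062 to 0.20 and from -0.063 to 0.050, below 0 for ADAM8 without NC siRNA library 2 or BNC2 siRNA library 1 and for ADAMTS15 without NC siRNA library 2 or 3 or BNC2 siRNA library 3.

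The median log2 fold change of the members tested (0.08) moved to 0.0047 with total counts only and to 0.027 with counts of both strands, and lay at 0.0069 to 0.10 without a library, lowest without NC siRNA library 2. The cause was not tested. The median of all genes tested, at 0.00, changed sign with DESeq2 (-0.0064), DESeq2 size factors (-0.0066), total counts only (-0.0745), no filter (-0.0733) and filterByExpr (-0.00037), and ranged from -0.0032 to 0.0057 without a library. RHBDF1 was at -0.0029 with total counts only and at -0.044 to 0.14 without a library, below 0 without NC siRNA library 1. TSPAN15 was called lower without the first BNC2 siRNA library (-0.89) and B3GALTL with total counts only (-0.21). BNC2 kept its fall, at -0.73 to -0.56 without a library.

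Replicate numbers did not pair the libraries: deviations of libraries with the same number correlated at -0.21, -0.08 and -0.13. With a replicate block, 8 members rose and 11 fell, and 8400 genes were called in all against 8879. The depth of 16093978 to 18246254 counts limits members under 1 CPM, for which counts and, for some, ratios of summed counts were given.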
